A study of Mus musculus with 4 samples.

Results

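Mbp, Pmp22, Prx, Sox10, S100b, Mag and Cnp were followed in the mouse lower eyelid as genes of Schwann cells and myelin, chosen by name. They are 7 of the genes that could be listed in the tables, which together hold 15816 gene symbols; 6 were listed and 4 had a mean high enough to be analysed. The mice were wild type, of the inbred strain C57BL/6, with 1 library from males of 3 months, 1 from females of 3 months, 1 from males of 2 years and 1 from females of 2 years. Young stands for 3 months and old for 2 years below, and a group name such as old females means its 1 library. The question set by the design is how the lid and its meibomian glands, which make the lipid of the tear film, differ with age in each sex. The labels do not give the number of animals in a library, and a lid holds skin, conjunctiva, gland, muscle, vessels and nerve. In such bulk samples, fewer cells of a type and less RNA per cell cannot be told apart.

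Schwann cells are the glia of peripheral nerve. Those that wrap large axons build myelin, a stack of membranes held together by a small set of abundant proteins, under the control of the transcription factors SOX10 and EGR2 and of neuregulin signals from the axon. Several of the proteins have other sites: SOX10 and S100B also mark melanocytes or other crest-derived cells, PMP22 sits at junctions of epithelium and endothelium, and the Mbp gene also makes golli proteins from an upstream start in cells that form no myelin.

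Levels are in RPKM, reads per kilobase of gene and per unit of library size, so that levels of genes of unequal length can be set side by side. The lowest value listed was 0.12502 RPKM, and genes below such a level are not listed. The libraries held 14800 to 15299 listed genes. Depth, the summed coverage of listed genes, was 3.16 to 3.91 gigabases per library and lowest in old females. That library also correlated least with the others across the 12094 analysed genes (Pearson's r of 0.940 to 0.966, against 0.984 to 0.988 among the other 3), and genes are not independent replicates. With 1 library per group, differences between groups were not checked against replicates. Intervals in brackets are exact Poisson intervals at 95% from read numbers computed as coverage divided by 100, and they cover counting error only.

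The label of the set was checked first against the genes that define myelinating Schwann cells. Of the 7 members, 6 were listed in all 4 libraries. Mag, which encodes an adhesion protein of the myelin membrane next to the axon, was listed in none. Of 14 other genes of myelin proteins, Pmp2, Cldn19 and Nfasc were listed in no library. Of 13 axonal genes, 8 were listed in none, among them the neurofilament genes Nefl, Nefm and Nefh. Of 7 genes of central myelin and oligodendrocytes, 6 were listed in no library, among them Mag, which is in both lists. Some genes that myelinating Schwann cells are known for, Mag, Pmp2 and Cldn19 among them, were thus not listed, the other 11 of the 14 were listed in at least 1 library, and Mbp was far above the lowest listed value, so the members are described below gene by gene and not as one cell type.

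Mbp, which encodes the myelin basic protein that compacts the membrane stack, had the highest level of the members in every library. It had 21.7 RPKM in young males (21.2 to 22.3), 31.5 in young females (30.8 to 32.2), 25.8 in old males (25.2 to 26.3) and 16.1 in old females (15.6 to 16.6). The young female library was highest and the old female lowest, and none of these counting intervals overlapped. Mbp exceeded 71.8% of listed genes in old females and 84.2% in young females.

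The Mbp value covers every product of the gene. The tables place Mbp on chromosome 18 of the mm10 build from 82475123 to 82585637 on the plus strand, a span that starts at the upstream golli start. The ratio of coverage to RPKM corresponds to a gene model of 7416 to 7484 bases, against 4797 for the longest of 16 Mbp transcripts in GENCODE vM21 and 8469 for the union of their exons. Golli and classic transcripts therefore cannot be told apart in these values.

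Cnp encodes a phosphodiesterase of the cytoplasmic channels in myelin and is also made at low levels in many other cells. It had 4.09 RPKM in young males (3.73 to 4.48), 5.33 in young females (4.91 to 5.78), 4.20 in old males (3.84 to 4.59) and 4.91 in old females (4.48 to 5.38). Both female libraries were above both male ones, and the intervals of both male libraries overlapped that of the old female. Cnp lies on chromosome 11 from 100574939 to 100581739 on the plus strand, and its annotated exons overlap those of Dnajc7 on the other strand. The sources used here give no strand setting for the counting, so reads of these neighbours could be shared.

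Pmp22, which encodes a membrane protein of compact myelin, had 2.45 RPKM in young males (2.15 to 2.78), 2.43 in young females (2.13 to 2.76), 3.07 in old males (2.74 to 3.43) and 6.05 in old females (5.53 to 6.60). The old female library stood above the others, and the intervals of the other 3 overlapped. Pmp22 lies on chromosome 11 from 63128982 to 63159547 on the plus strand.

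Prx, Sox10 and S100b were low in all 4 libraries. Prx encodes periaxin, which links the Schwann cell surface to its skeleton and is also made in the lens. It had 0.889 RPKM in young males, 1.08 in young females, 1.11 in old males and 0.938 in old females, with a lowest interval bound of 0.770 and a highest of 1.25. All 4 intervals overlapped, so no order of the libraries was detectable at this depth. Prx lies on chromosome 7 from 27499324 to 27520041, and 1 antisense gene, Gm15541, overlaps its exons.

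Sox10 had 0.919 RPKM in young males (0.753 to 1.11), 0.971 in young females (0.798 to 1.17), 0.685 in old males (0.544 to 0.851) and 0.523 in old females (0.388 to 0.689). Both old libraries were below both young ones, and in females the 2 intervals did not overlap. These values rest on 106, 110, 81 and 50 reads. S100b, a calcium-binding protein of Schwann cells, had 0.510, 0.807, 0.501 and 0.547 RPKM in the same order, on 32 to 56 reads, and all 4 intervals overlapped. Sox10 lies on chromosome 15 from 79154913 to 79164490 on the minus strand, and S100b on chromosome 10 from 76253836 to 76261319 on the plus strand.

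**Figure D1:**
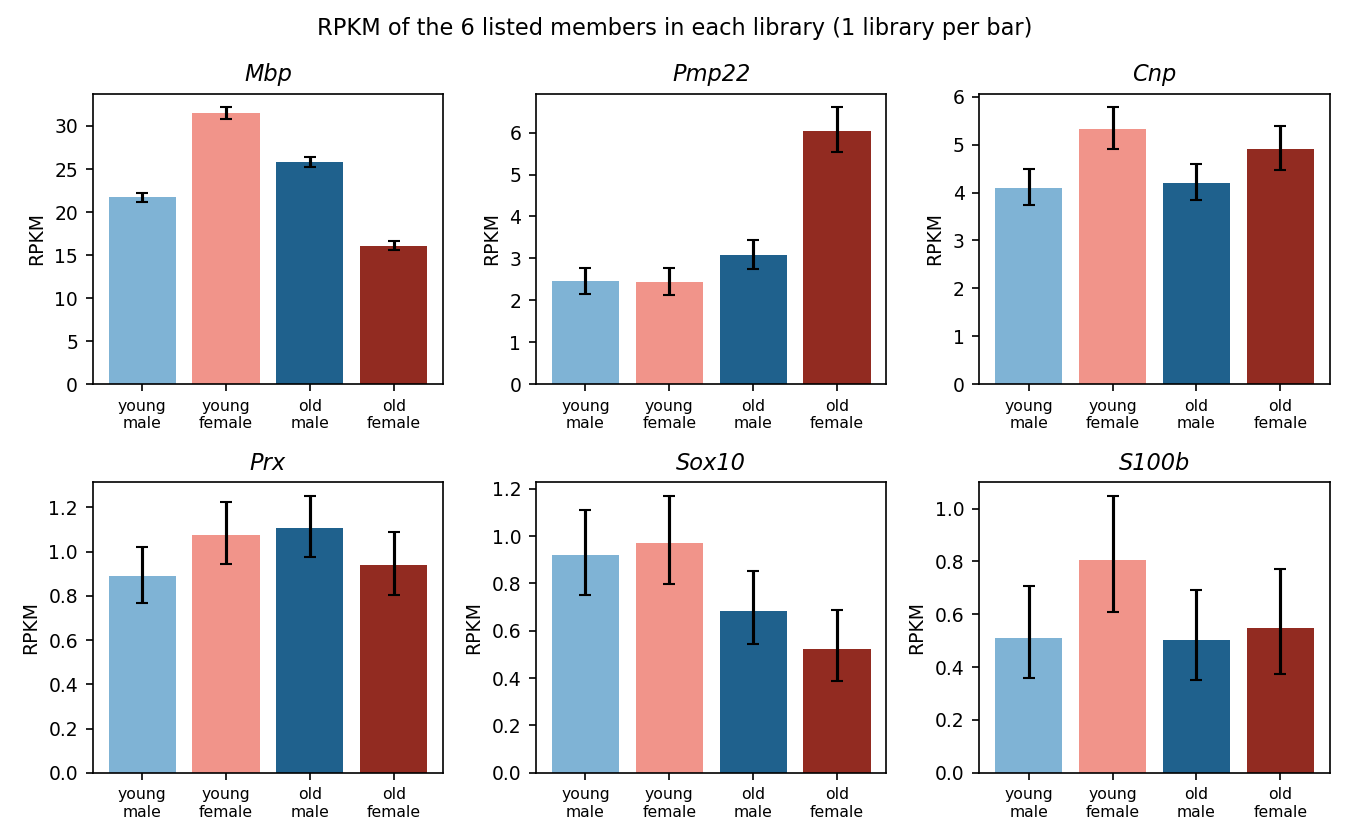
RPKM of Mbp, Pmp22, Cnp, Prx, Sox10 and S100b on separate linear axes from 0, with 1 bar per library and 95% counting intervals as error bars. Pmp22 stands at 6.05 RPKM in the old female library against 2.43 to 3.07 in the others, and Mbp is lowest there, at 16.1 RPKM.

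The windows around the annotated starts are shown for the members that the comparisons below turn on, Pmp22, which has several starts, and for Cnp and Mag, whose windows hold the letters of a SOX motif. The windows are from RefSeq on GRCm38.p6, 250 bases before to 50 after each start, and 5 of the 7 members were in the table. Searched were ACAAAG and ACAATG for SOX factors and GCGTGGGCG and GCGGGGGCG for EGR factors, on both strands; capitals mark a match, and none overlapped another. Pmp22 has 4 windows, and the first pair is printed, at chr11:63128732-63129031 and chr11:63131207-63131506 on the plus strand. The Mag window lies at chr7:30914814-30915113 on the minus strand, and that of Cnp at chr11:100574689-100574988 on the plus strand.
Pmp22, first start: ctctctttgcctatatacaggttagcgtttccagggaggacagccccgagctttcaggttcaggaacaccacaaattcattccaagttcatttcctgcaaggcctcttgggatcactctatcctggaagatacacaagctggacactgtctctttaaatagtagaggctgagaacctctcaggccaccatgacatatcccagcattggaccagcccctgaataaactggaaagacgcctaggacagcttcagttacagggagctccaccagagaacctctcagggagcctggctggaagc
Pmp22, second start: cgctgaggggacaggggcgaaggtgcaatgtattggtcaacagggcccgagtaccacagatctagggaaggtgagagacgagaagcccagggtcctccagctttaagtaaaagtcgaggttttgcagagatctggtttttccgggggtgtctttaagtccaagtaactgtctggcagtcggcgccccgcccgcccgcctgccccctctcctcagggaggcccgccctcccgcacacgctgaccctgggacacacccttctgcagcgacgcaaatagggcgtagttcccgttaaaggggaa
Mag: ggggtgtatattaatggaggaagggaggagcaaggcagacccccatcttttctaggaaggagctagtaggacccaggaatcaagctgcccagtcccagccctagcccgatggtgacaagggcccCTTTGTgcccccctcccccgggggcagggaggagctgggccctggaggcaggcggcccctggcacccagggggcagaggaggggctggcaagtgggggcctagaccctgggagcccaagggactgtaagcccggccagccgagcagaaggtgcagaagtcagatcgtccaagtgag
Cnp: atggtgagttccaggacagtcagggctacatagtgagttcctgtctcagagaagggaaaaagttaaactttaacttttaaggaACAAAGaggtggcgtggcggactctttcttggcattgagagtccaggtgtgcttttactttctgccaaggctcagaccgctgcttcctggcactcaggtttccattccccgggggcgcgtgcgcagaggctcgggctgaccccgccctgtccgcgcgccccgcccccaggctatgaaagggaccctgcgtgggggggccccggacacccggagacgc

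ACAAAG was found once in the Cnp window and, as CTTTGT on the printed strand, once in 2 overlapping Mag windows. None of the 4 Pmp22 windows, nor those of Prx and S100b, held any of the 4 motifs. Of 32851 windows of all genes, 18.7% held ACAAAG, 28.6% either SOX motif and 3.47% either EGR motif, so a match is common and describes letters, not a bound site. The gene-level RPKM of Pmp22 does not separate its starts.

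Old and young libraries were compared within each sex. Ratios are differences of log2(RPKM + 1), which understate changes of low genes, and a gene was counted when at least 2-fold apart. In females, Pmp22 was higher in the old library, with a log2 ratio of 1.04 (2.49-fold in RPKM), and Mbp was lower, at -0.93 (1.96-fold in RPKM). Sox10 differed by -0.37, S100b by -0.22, Prx by -0.10 and Cnp by -0.10. Of the 4 members with a mean of at least 1 RPKM, Mbp, Pmp22, Prx and Cnp, Pmp22 passed 2-fold upward in old females, 1 of 4 against 5.33% of all 12094 genes, and 0 of 4 passed downward, against 3.37%. Without a pseudocount the members gave the same counts, against 7.59% and 4.33% of genes listed in both libraries. Prx passed the limit of 1 RPKM narrowly, with a mean of 1.003 RPKM, and Sox10 (0.775) and S100b (0.591) lay below it. The Pmp22 ratio lay above those of 95.04% of all genes and the Mbp ratio above 3.99%. Pmp22 was no longer 2-fold apart with a pseudocount of 5 (0.57), median scaling (0.97) or quantile normalization (0.91).

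In males, the members lay closer together, as all analysed genes did. The SD of the ratios over all analysed genes was 0.273 in males and 0.608 in females. Pmp22 differed by 0.24, Mbp by 0.24, Prx by 0.16 and Cnp by 0.03, and Sox10 by -0.19 and S100b by -0.01. None of the 4 analysed members was 2-fold apart, where 0.827% of all genes were higher and 0.215% lower in the old library, or 1.72% and 0.538% without a pseudocount. Over the 6 listed members the median ratio was -0.16 in females and 0.09 in males, against 0.07 and -0.01 over all analysed genes. Sox10 was lower in the old library of both sexes. Of the 4 analysed members, Pmp22 was above 0 in both sexes, as 22.3% of all genes were, and none was below 0 in both, against 16.2%. Mbp, Prx and Cnp were below 0 in females and above 0 in males, against 24.7% of all genes, and 0 had the opposite pattern, against 36.8%.

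**Figure D2:**
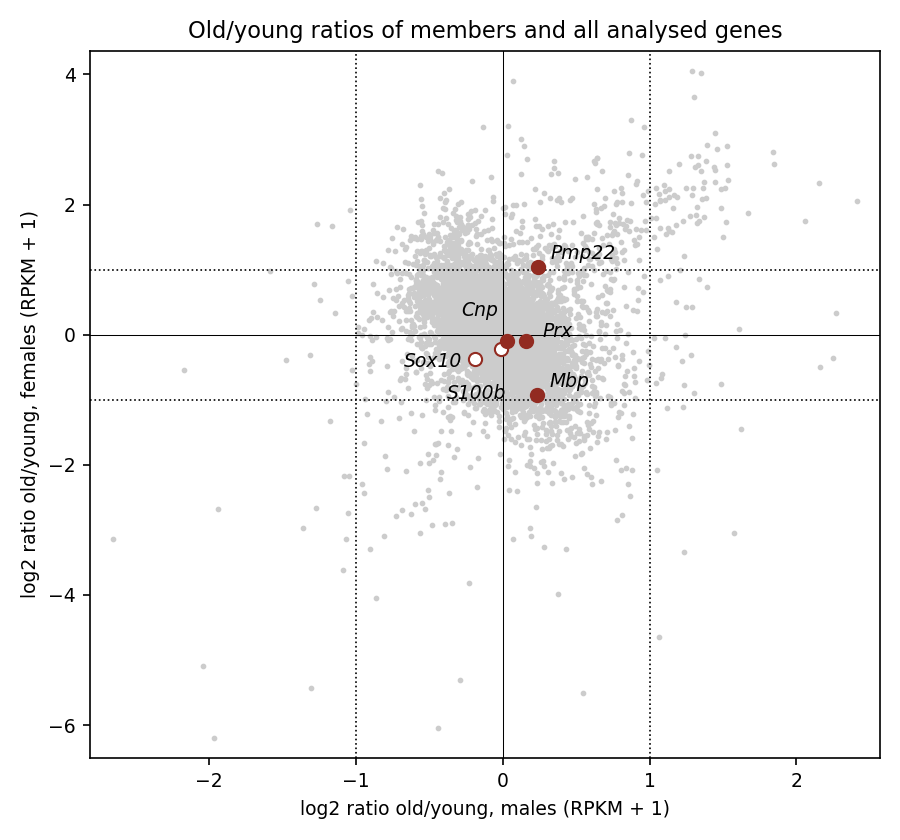
Log2 old/young ratios of RPKM + 1 in males (horizontal) and females (vertical) for the 12094 analysed genes (grey) and the members (red; open symbols are Sox10 and S100b, below a mean of 1 RPKM), with dotted lines at 2-fold. Pmp22 lies at 0.24 in males and 1.04 in females, and Mbp at 0.24 and -0.93.

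The age difference averaged over the sexes passed the test for no member. With limma, on age and sex as terms and with 1 residual degree of freedom, Pmp22 differed by 0.64 ± 0.26 (log2, SE, 2 old against 2 young libraries) and Mbp by -0.35 ± 0.35. Both had an adjusted p of 0.999995 after Benjamini-Hochberg adjustment over all genes. Cnp and Prx differed by -0.03 ± 0.17 and 0.03 ± 0.21. Without the filter on low values, Sox10 differed by -0.28 ± 0.16 and S100b by -0.12 ± 0.16. Of 12094 genes 0 passed (0.0%), and 355 had an unadjusted p under 0.05. The fit takes its spread from how the age difference varies by sex, and that of Mbp changes sign. With 3 libraries the other term could not be kept. With the old male library and the sex term both left out, 153 genes passed, none of them a member, and Pmp22 stood at 1.03 with a limma adjusted p of 0.0745; the lone old library was then assumed to vary like the young ones. With the sex term alone left out, 0 passed.

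The authors' deposited table of genes higher in the old female library holds Pmp22, with a fold of 2.49 and a Bonferroni value of 3.63e-08. No other member is in any of the authors' 4 deposited tables, and those of genes higher in young females and young males hold 3.17% and 1.33% of the tests. These tables hold genes of at least 2-fold in RPKM, but not all such genes. The muscle gene Acta1 (6.18-fold higher in old than in young females) and the myelin gene Mal (4.13-fold lower) are in none of the 4. The table of genes higher in the old female library holds 1983 genes, 8.38% of the 23650 tests that its Bonferroni values imply. The sources used here do not say what spread lies behind its p-values.

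Male and female libraries were compared at each age. At 3 months Mbp was lower in the male library by 0.52 on the log2 scale (log2 ratio of male to female -0.52), Cnp differed by -0.31, S100b by -0.26, Prx by -0.14, Sox10 by -0.04 and Pmp22 by 0.01. At 2 years Mbp was higher in the male library, at 0.65, and Pmp22 lower, at -0.79. Cnp differed by -0.18, S100b by -0.04, Sox10 by 0.15 and Prx by 0.12. No analysed member was 2-fold apart at either age, where 0.976% and 0.364% of all genes were higher and lower in the male library at 3 months and 1.98% and 1.78% at 2 years. In the averaged limma fit the sex difference was -0.39 ± 0.26 for Pmp22, -0.25 ± 0.17 for Cnp and 0.07 ± 0.35 for Mbp, each with an adjusted p of 0.999909, and 0 of 12094 genes passed (74 at an unadjusted p under 0.05).

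Other myelin protein genes went both ways in the old female library. Of the 5 analysed among 14, females had 1 past 2-fold upward and 2 downward, against 5.33% and 3.37% of all genes. Males had 0, against 0.827% and 0.215%, but Myoc passed upward with a pseudocount of 0.1 (1.55) or none (1.71). The medians were -0.78 and 0.32. Mal, a lipid-raft protein of myelin and of epithelial cells, had 524.3 RPKM in young males, 971.5 in young females, 770.4 in old males and 235.4 in old females. Pllp, plasmolipin, had 57.0, 107.6, 67.3 and 36.7 RPKM in the same order, and Cadm4, an adhesion protein through which Schwann cells contact axons, 51.7, 70.6, 64.8 and 40.6. Like Mbp, these 3 were highest in the young female library and lowest in the old female. Myoc, myocilin, which peripheral nerve and the eye make, had 0.584, 1.24, 1.91 and 8.09 RPKM. It was higher in both old libraries, by 2.02 in females and 0.88 in males.

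Several low genes of nerve were higher in old females. Gldn, gliomedin of the node, was listed in the old male and old female libraries, at 0.195 and 0.524 RPKM, and in neither young one. The sodium channel gene Scn7a of Schwann cells had 0.147 and 0.518 RPKM in the old libraries and was likewise not listed in the young. Stmn2, a regulator of microtubules in axons, had 0.148 RPKM in young males, 0.614 in old males and 1.01 in old females, and was not listed in the young female. Gldn and Scn7a were named after their values were seen.

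The authors' deposited table of genes higher in the old female library holds 4 of the 14 other myelin genes (Gldn, Cntn2 and Myoc among them), 3 of 8 non-myelinating Schwann cell genes (Ncam1, Scn7a and Art3), 3 of 13 axonal genes (Uchl1, Stmn2 and Tac1) and 3 of 15 Schwann cell regulators (Lgi4, Dhh and Zeb2). The table holds 8.38% of all tests, as given above. It also holds 6 of 6 endothelial, 6 of 7 adipocyte and 6 of 12 skeletal muscle genes. Of melanocyte genes it holds 0 of 9, and of basal epithelial genes 0 of 8. Among the nerve genes named, Ncam1, Tac1 and Dhh were listed in the old female library alone, at 0.197, 0.246 and 0.267 RPKM. The authors' deposited table of genes higher in young females holds 0 of the 14 other myelin genes, beside 3.17% of all tests. Mal and Pllp are not in it, although they were 4.13-fold and 2.93-fold lower in RPKM in old than in young females. The authors' deposited table of genes higher in old males holds 1 gene of each of the 4 lists of myelin, Schwann cell and axonal genes (Myoc, Scn7a, Stmn2 and Sox2), beside 2.85% of all tests. The authors' deposited table of genes higher in young males holds Cntn2, at a fold of -2.75, so that gene went opposite ways in the sexes. Cntn2 was low, with 0.429 RPKM in young males, 0.133 in young females, 0.156 in old males and 0.553 in old females. On the log2(RPKM + 1) scale it differed by 0.46 in females and -0.31 in males, with 1 library per group.

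**Figure D3:**
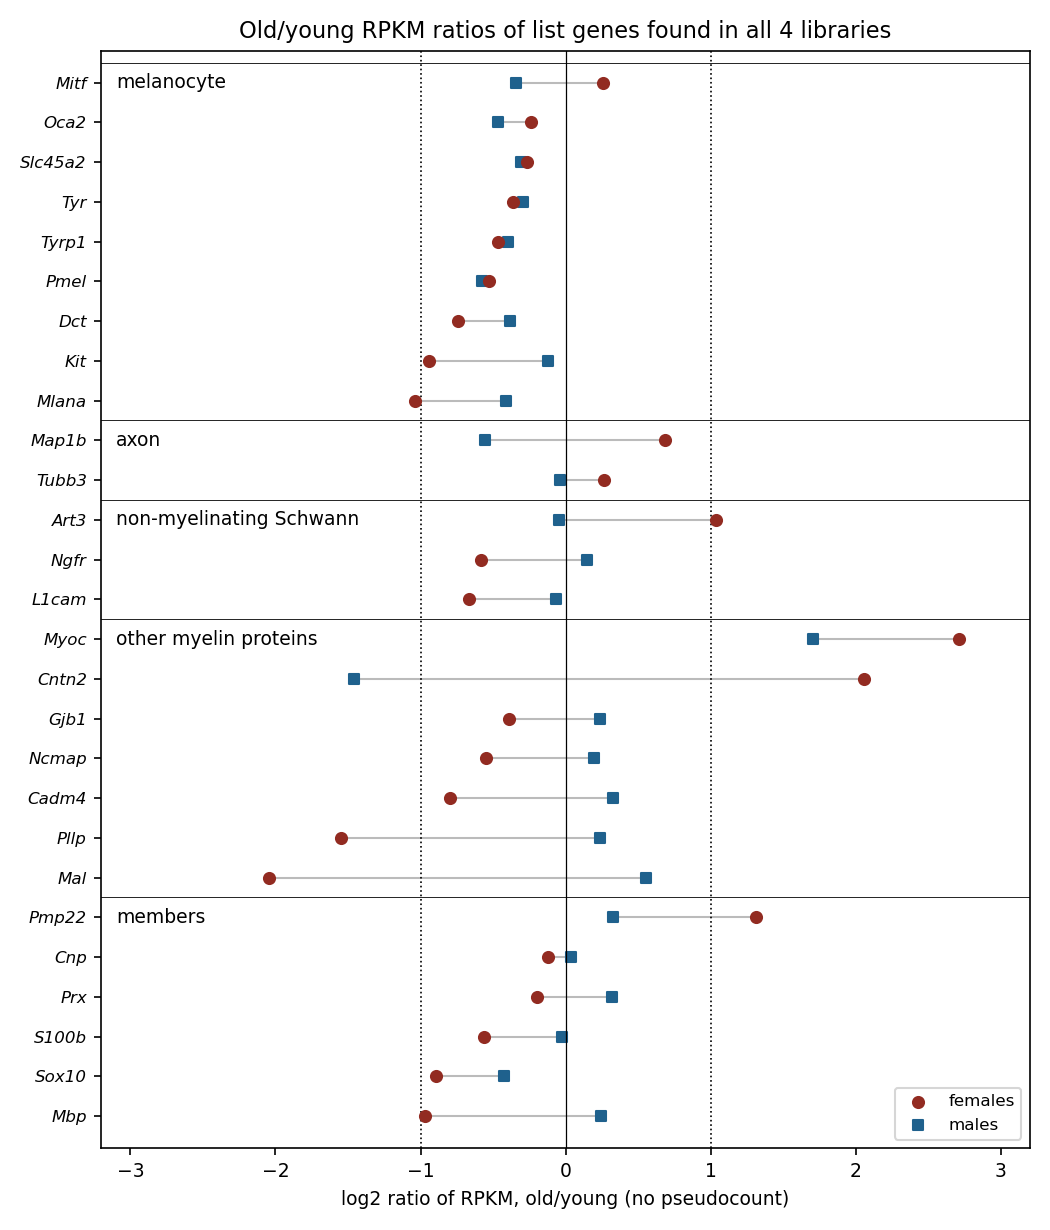
Log2 ratios of RPKM, old/young and without a pseudocount, in females (circles) and males (squares) for genes of 5 lists that all 4 libraries list, with dotted lines at 2-fold. Mbp, Mal, Pllp and Cadm4 lie left of 0 in females and right of 0 in males, and Pmp22 and Myoc lie right of 0 in both.

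Markers of other tissues also differed between the libraries. The summed RPKM of 6 endothelial genes was 1.69 in young males, 1.38 in young females, 3.60 in old males and 10.8 in old females. That of 12 skeletal muscle genes was 364.2, 334.0, 926.4 and 1564 in the same order, and that of 7 adipocyte genes 42.9, 43.9, 40.2 and 85.8. These 3 sums, and the meibocyte sum given below, were highest in the old female library, as Pmp22 was. The sum of 8 basal epithelial genes was 10666, 14330, 12282 and 5720 RPKM. That of 6 conjunctival and corneal genes was 4244, 6594, 5960 and 1439. Both sums were highest in the young female and lowest in the old female library, as Mbp was. Krt4 and Krt13, at 2390 and 3842 RPKM in young females, were the largest terms of the conjunctival and corneal sum. Of its 6 genes, 4 were lower and 2 higher in old than in young females. The 2 were Muc5ac, at 456.7 against 200.1 RPKM, and Spdef, at 23.7 against 10.2. The 8 suprabasal epidermal genes summed to 2292, 2324, 1599 and 667.1 RPKM and the 8 meibocyte genes to 7876, 3267, 5778 and 11075. The 7 macrophage and Langerhans cell genes summed to 51.4 to 69.4 RPKM, the 6 lymphocyte genes to 10.7 to 23.6, with the highest in the young female library, and the 5 exocrine gland genes to 276.6 to 493.6. The part of any of these tissues in the values of the members was not tested.

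Among analysed regulators and receptors of Schwann cells, 0 passed 2-fold between ages on the log2(RPKM + 1) scale, against 5.33% and 3.37% of all genes higher and lower in females and 0.827% and 0.215% in males. Sox2 in males passed with a pseudocount of 0.1 (1.22) or none (1.26). All 15 were listed in at least 1 library and 11 analysed, and their median ratio was -0.14 in females, against -0.11 in males. Egr2, the factor that turns on myelin genes and also an immediate early gene, had 42.9 RPKM in young males, 24.9 in young females, 24.97 in old males and 48.6 in old females. Its ratio was 0.94 in females and -0.76 in males. Erbb2, a subunit of the neuregulin receptor, had 30.6 to 38.3 RPKM and ratios of -0.31 and -0.18. Jun, which drives the repair state of Schwann cells after injury, had 40.7 to 43.6 RPKM. Nab1, a partner of EGR2, differed by -0.74 and 0.37, and Sox2 by -0.25 and 0.99, with 5.76 RPKM in the old male library against 2.06 to 2.64 in the others.

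Non-myelinating Schwann cell genes were partly listed. Of 8, 7 were listed in some library, Gfap in none, and 3 were analysed, and their median ratio was -0.55 in females, against -0.04 in males. Ngfr, the low-affinity neurotrophin receptor, which basal epithelium also makes, had 15.5, 19.9, 17.1 and 13.2 RPKM in the order young male, young female, old male and old female. L1cam, an adhesion protein, had 8.54 to 13.5 RPKM and ratios of -0.61 and -0.06, and Art3 0.87 and -0.04. Art3 passed 2-fold in females with a pseudocount of 0.1 (1.02) or none (1.04).

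Sox10 was set beside melanocyte genes, since pigment cells make it too. Of 9 melanocyte genes all were listed in every library, and 8 were lower in old females and 9 in old males. The 8 were thus lower in both sexes, as 16.2% of all analysed genes were. Mitf was higher in old females and lower in old males, as 36.8% of all analysed genes were. On the log2(RPKM + 1) scale 0 of the 9 were 2-fold lower, against 3.37% of all genes in females and 0.215% in males. Mlana in females passed with a pseudocount of 0.1 (-1.03) or none (-1.04), with median scaling (-1.00172) and with quantile normalization (-1.03). Their medians were -0.44 and -0.29. Their summed RPKM was 121.7 in young males, 133.7 in young females, 92.5 in old males and 86.6 in old females, the same order as in Sox10 and in the suprabasal epidermal sum. Dct, an enzyme of melanin synthesis, had 40.7, 48.0, 31.2 and 28.7 RPKM. Sox10 was at 0.0182 to 0.0226 of the Dct level in each library. Pmel, a pigment granule protein, had 26.8, 27.0, 18.0 and 18.7 RPKM, and Mlana differed by -0.94 in females and -0.37 in males. The part of pigment cells or epidermis in the Sox10 values was not tested.

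**Figure D4:**
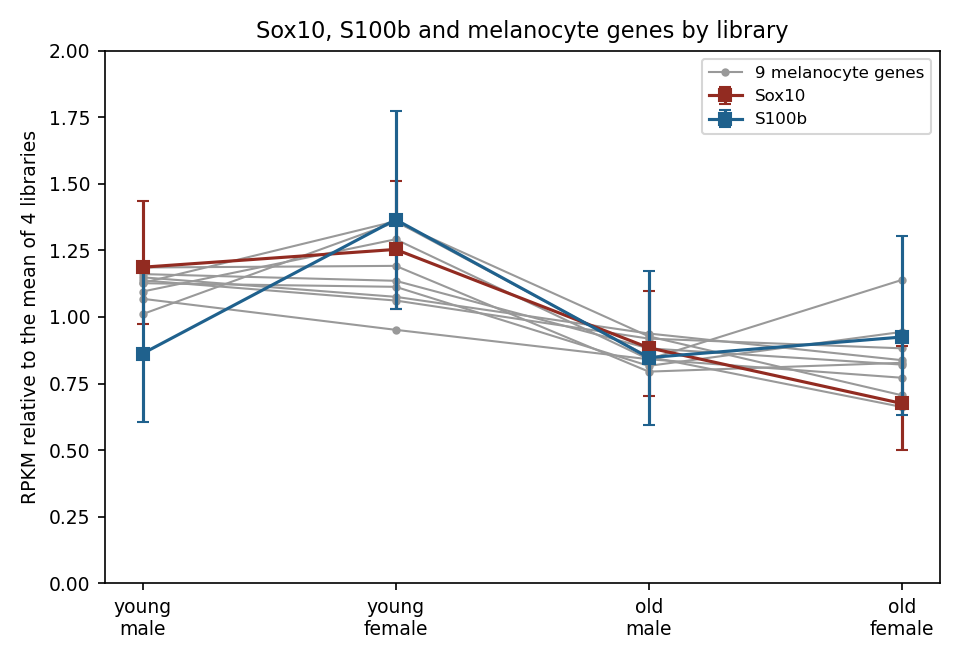
RPKM of Sox10, S100b and 9 melanocyte genes in each library, divided by the gene's mean over the 4 libraries, with 95% counting intervals for the first 2; the lines join values of 1 gene. Sox10 and most pigment genes lie lower in the 2 old libraries, and S100b is highest in the young female library, at 0.807 RPKM.

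The genes whose profile over the 4 libraries was most like that of each analysed member were taken by the root mean square distance of centred log2(RPKM + 1) values. For Mbp they were Cyp2f2, B3gnt8 and Pdpn, at distances of 0.01, 0.02 and 0.02, beside 0.34 for a flat profile. Pdpn, podoplanin, had 28.6, 40.7, 32.7 and 20.8 RPKM in the order young male, young female, old male and old female. For Pmp22 they were Fgl2, Fxyd6 and Rhoj, at 0.02, 0.03 and 0.05, with Fgl2 at 3.02, 3.04, 3.86 and 7.42 RPKM. For Cnp they were Isoc2b, Tmem106a and Thnsl2, and for Prx Zfp553, Runx2 and Clp1. Prx and Cnp were themselves nearly flat, at 0.07 and 0.13 from a flat profile. These names describe values over 4 libraries and nothing more.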

How the data were processed

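RNA of 4 lower eyelid libraries was compared. The RPKM values were deposited by the authors in 1 table per library, and per the submitters' processing notes TopHat, Cufflinks and mm10 were used. The sources used here give no versions, counting rule or strand setting. A second deposited column, headed as a raw count, was read as signal, the summed base coverage: in genes of at most 3000 bases of coverage, 26.7% to 29.7% of its values are exact multiples of 100, where 1% would be even, and 47.8% to 51.8% of these are odd multiples. It was therefore divided by 100 for read numbers and not tested as counts. Per the file headers, the authors' 4 comparison tables hold RPKM, a p-value, its Bonferroni value and a fold, a ratio or, where the young library is higher, a negative score.

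A total of 2 symbols on more than 1 row were left out. Genes missing from a table were set to 0, 1 was added and log2 taken; 12094 of 15816 genes with a mean of at least 1 RPKM were analysed. The limma package (3.58.1, R 4.3.3) gave averaged differences from a model of age plus sex, with variances moderated along mean intensity. Its p-values were adjusted by Benjamini-Hochberg, at 0.05, and the script was tested on simulated data. No label says that libraries are of separate animals, so p-values measure the spread among these 4 libraries.

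The members and the other 18 lists were chosen with earlier results of these data known. Named from each list were the 3 genes of highest mean RPKM and those of the largest old/young ratio, 2 in females and 1 in males. Further genes, said to be so where they appear, were named after their values were seen, as were the genes that fill counts from the authors' tables. Symbols were matched to GENCODE vM21 (15154 of 15816). Alternatives were other pseudocounts, filters and scalings, and leaving out a library. Some genes of the lists are not reported here.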

Additional observations from a re-analysis of the deposited data

Results flagged for a closer look

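A total of 3 members had old/young differences of log2(RPKM + 1) of opposite sign in the sexes, and with 1 library per group the difference between the sexes was not tested. Mbp differed by -0.93 in females and 0.24 in males. Prx differed by -0.10 and 0.16, and Cnp by -0.10 and 0.0305, and for both the counting intervals of old and young libraries of one sex overlapped. Of all 12094 analysed genes 24.7% were likewise below 0 in females and above 0 in males.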

How the results depend on the processing

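Counts of genes 2-fold apart over all analysed genes depended on the pseudocount and the filter, which bears on the percentages beside the members. In females they were 645 higher and 408 lower, against 320 and 239 with a pseudocount of 5, and 393 higher with a mean of at least 5 RPKM. In males they were 100 and 26, against 200 and 54 with a pseudocount of 0.1, 41 and 11 with 5, 66 higher with the stricter mean, and 208 and 65 with no pseudocount, an alternative chosen after seeing the data. Male libraries had 118 higher and 44 lower at 3 months, against 212 and 76 (0.1), 60 and 19 (5), and 226 and 84 (no pseudocount). At 2 years they had 240 and 215, against 146 and 93 (5), 406 lower (0.1), 129 lower (stricter mean) and 452 lower (no pseudocount). The cause was not tested. In limma, leaving out a library also meant leaving out the other term, so 2 choices changed at once. For age this gave 0 to 153 calls, the 153 without old males, and age alone on all 4 libraries gave 0. For sex it gave 0 to 25, the 25 without young females and 3 without old females, and sex alone on all 4 gave 3. Recomputed values were held against 2-fold for ratios and against the adjusted p threshold for limma differences, and the totals mix both. Of 222 recomputed values of the members, 219 stayed on their side of the threshold, and the other 3 are those given for Pmp22. Settings that changed only the filter or the value for missing genes returned a member's main ratio exactly. Part of the 219 therefore could not move, and that total does not measure stability. Of 3378 of the other named genes, 50 passed their threshold and 18 fell short where the main value did not, among them those given for Sox2, Myoc, Mlana, Art3 and Gal3st1. No paired analysis was possible because the labels give no numbers that pair libraries, beyond the sex that the limma fit holds as a term. Low members rest on few reads, 32 to 110 for Sox10 and S100b.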

Other observations

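Neuregulins, the ligands of the receptors that drive Schwann cell growth and myelination, were listed for 4 of 5 genes. Nrg4, a family member known from fat and gland, had 3.84 RPKM in young males, 1.88 in young females, 2.60 in old males and 9.11 in old females, with old/young log2 ratios of 1.81 in females and -0.43 in males. Nrg2 had 2.82 to 3.74 RPKM, and Bace1, the protease that activates neuregulin, 3.27 to 4.63. Nrg4 was the 1 of 4 analysed genes past 2-fold in females, upward, as 5.33% of all genes were. No gene of the list passed in males.

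Enzymes for myelin lipids were listed for 5 of 6 genes. Ugt8a, which makes the galactosylceramide of myelin, was listed in no library. In females 3 of 5 analysed genes passed 2-fold upward, beside 5.33% of all genes, and in males 0, beside 0.827%. The medians were 1.39 and 0.07. Elovl1, an elongase of very long chains, had 1520, 690.6, 1176 and 2248 RPKM in the order young male, young female, old male and old female. Cers2, a ceramide synthase, had 32.2 to 36.5 RPKM. Gal3st1, which adds sulfate to galactosylceramide, differed by -0.63 in females and 0.83 in males, and passed 2-fold in males with a pseudocount of 0.1 (1.12) or none (1.17). The summed meibocyte genes, like Elovl1, were highest in the old female library. Their part in the values of this list was not tested.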
